A study of Rattus norvegicus with 16 samples.

Results

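The microRNA miR-327 (rno-miR-327 on the array) is 1 of 350 rat microRNAs (miRNAs) read on the array, by 2 probes of 10 spots each. It was taken by its name on the array and was picked for its higher signal in kidney after contrast medium, so its kidney values are given as a description and are not tested. The study used contrast-induced acute kidney injury (CI-AKI), an injury caused by the iodinated contrast media of X-ray imaging. All 24 rats were male Sprague-Dawley rats of 250 to 300.0 g that had gone 3 days without water and then received the diuretic furosemide at 10 mg/kg. The CI-AKI rats then received Omnipaque, a nonionic low-osmolar contrast medium with 350 mg iodine per ml, at 10 ml/kg into the tail vein over 5 min, and the control rats received the same volume of saline. Blood and kidneys were taken 8 h later, and each pool combined the RNA from 3 rats. This gave 4 pools each of CI-AKI plasma, control plasma, CI-AKI kidney and control kidney, with 1 array per pool, and each pool is a mean over 3 rats. Dehydration and furosemide were common to all groups, so contrast medium was compared with saline on top of them.

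MiRNAs are short RNAs that are cut from a hairpin precursor and guide a silencing complex to messenger RNAs, mainly through the seed near the 5′ end. Many miRNAs also circulate in plasma inside vesicles or bound to protein, and some of these come from 1 organ, such as miR-122 from liver. In mouse fat progenitors, miR-327 has been reported to act on the growth factor Fgf10.

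RefSeq places the Mir327 hairpin on rat chromosome 20 of the GRCr8 build, minus strand, at chr20:13161077-13161170. No other gene of the RefSeq table overlaps it. Its neighbours are the protein-coding gene Gucd1, which ends 5311 bases to the left, and the long noncoding RNA gene LOC102556392, which starts 1001 bases to the right. The mature miRNA lies at chr20:13161137-13161155, on positions 16 to 34 of the 94-base hairpin. The mature sequence is shown because it is the RNA the array is meant to read, and the hairpin because it gives its context; the capitals mark the seed (bases 2 to 8) in the mature sequence and the mature miRNA in the hairpin.
miR-327 mature: cCUUGAGGggcaugagggu
Mir327 hairpin: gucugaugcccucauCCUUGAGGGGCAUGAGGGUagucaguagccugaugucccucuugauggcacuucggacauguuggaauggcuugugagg

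Among 693 rat mature sequences of RefSeq, 0 others shared this seed, and 0 shared bases 2 to 7, so no seed family could be followed on the array. The sequence was short and rich in G. It has 19 bases, a length that 43 of the 693 sequences, itself included, do not exceed, and the median length is 22. G made up 47.4% of its bases, against a median of 23.8%, and 22 sequences had a share at least as high. The run GGGG, which miR-327 holds, occurred in 43 sequences (6.2%). For comparison, mature sequences follow for miRNAs whose signal was set beside that of miR-327 below and whose array name is that of a RefSeq entry, with the seed in capitals. Those of miR-188, miR-466b and miR-423 are not printed because the array name does not say which arm of the hairpin is meant.
miR-125a-3p: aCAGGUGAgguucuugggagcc
miR-291a-5p: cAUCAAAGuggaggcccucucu
miR-215: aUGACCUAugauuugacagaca
miR-300-5p: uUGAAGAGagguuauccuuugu
The 4 seeds differ from that of miR-327 and from each other.

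The arrays differed in strength. In plasma, 156 to 211 miRNAs were detected on the arrays other than pool 4, while the pool 4 arrays of both groups were weak, with 95 in CI-AKI and 84 in control. Their labelling spike-in, a synthetic RNA, read 164.1 and 54.8, against 928 to 3155 on the other plasma arrays. In kidney, 174 to 216 miRNAs were detected in CI-AKI pools and 169 to 195 in control pools. Each pool also carries a letter code, with 8 letters used once in each tissue, whose meaning is not stated. For 6 of the 8 letters the treatment is opposite in plasma and kidney. If a letter marks 1 set of rats, the labels of 1 tissue are wrong for these, and the direction given below would turn in that tissue. With these 6 letters exchanged in kidney, miR-327 would be detected in 1 of 4 CI-AKI and 3 of 4 control pools (log2 difference -1.67), and with them exchanged in plasma its log2 difference would be -0.85. Plasma and kidney arrays lay on different slides, so tissue and slide cannot be told apart, and within each slide the odd columns held control and the even columns CI-AKI pools, so treatment and column cannot be told apart.

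Signal is the scanner's background-corrected brightness, scaled between arrays, and a miRNA counts as detected where the scanner software calls it so. MiR-327 was detected in all 8 plasma pools, in 4 of 4 CI-AKI kidney pools and in 0 of 4 control kidney pools. On a scale set over all 16 arrays its mean signal was 933 ± 326 in CI-AKI plasma, 484 ± 143 in control plasma, 12.6 ± 3.05 in CI-AKI kidney and 0.995 ± 0.429 in control kidney (SD, n = 4 each). The groups followed each other in this order with no overlap. The gap was narrow between the plasma groups, where the lowest CI-AKI pool stood at 722 and the highest control pool at 679, less than the SD of either group. It was wide elsewhere: the lowest control plasma pool, at 366, was far above the highest CI-AKI kidney pool, at 15.8, and the lowest CI-AKI kidney pool, at 8.95, above the highest control kidney pool, at 1.46.

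**Figure D1:**
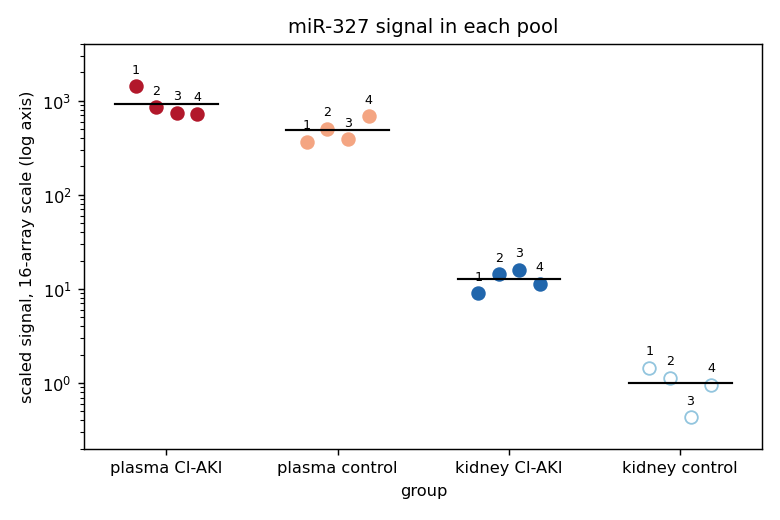
Signal of miR-327 in each pool on the 16-array scale (vertical log axis), by group; each point is 1 pool with its number, the bar is the group mean, filled points were detected and open points were not. The means fall in steps over CI-AKI plasma (933), control plasma (484), CI-AKI kidney (12.6) and control kidney (0.995), and all 4 control kidney points are open.

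In kidney, scaled over the kidney arrays alone, miR-327 read 18.9, 29.5, 31.3 and 24.5 in CI-AKI pools 1 to 4, against 3.1, 2.36, 0.916 and 1.89 in control pools 1 to 4. Every CI-AKI pool was above every control pool. The means were 26.1 ± 5.58 in CI-AKI and 2.06 ± 0.913 in control kidney (SD, n = 4), a log2 difference of 3.52 after values under the detection floor had been raised to it. No control array detected miR-327, so its control level is uncertain. With each control value raised to at least the lowest detected signal of its array, CI-AKI kidney was 10.6-fold higher. This is no firm lower limit, since miR-188 went undetected at 5.45 in control pool 1, where the lowest detected signal was 2.33. With a floor 4 times as high, the log2 difference of miR-327 was 1.84. By the title groups, only miR-327 of the 176 miRNAs tested in kidney (0.568%) was detected on all CI-AKI arrays and no control array. That would not hold with the letters exchanged. The fit across all 176 called 1.7% of them (3, all higher), and the groups did not overlap for 5.11%. MiR-327 was picked from this contrast and entered the 176 only through its CI-AKI pools. Nothing is therefore read from its detection pattern or from its place among them. The next largest kidney difference among these miRNAs was 1.08, for miR-188.

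The unscaled readings were separated in the same way. Averaged over both probes, miR-327 read 22.8, 34.2, 18.8 and 27.6 in CI-AKI kidney pools 1 to 4, against 2.77, 2.85, 0.964 and 1.76 in control pools 1 to 4. CI-AKI pool 3, lowest before scaling and highest after it, had the lowest total miRNA signal of the kidney arrays, at 59735. In the authors' deposited table of log2 values, miR-327 stood at 3.91, 4.67, 4.77 and 4.45 in CI-AKI kidney pools and between 0.982 and 1.14 in control kidney pools. The slide held its arrays in 2 rows, each with 2 pools of each kidney group. The log2 difference was 3.13 in the first row and 3.92 in the second.

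Both probes contributed. Probe A_26_P00001026 had a scaled kidney signal of 15.0 ± 4.53 in CI-AKI and 1.36 ± 1.02 in control pools, and probe A_26_P00001027 had 37.1 ± 6.94 in CI-AKI and 2.77 ± 1.28 in control pools (SD, n = 4). For each probe the lowest CI-AKI pool (9.87 and 27.9) exceeded the highest control pool (2.03 and 4.56). Single spots told the same: unscaled, the CI-AKI kidney spots ranged from 8.2 to 52.8 and the control kidney spots from -2.42 to 7.4. Of 80 spots in each kidney group, 78 were called well above background in CI-AKI pools and 0 in control pools.

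**Figure D2:**
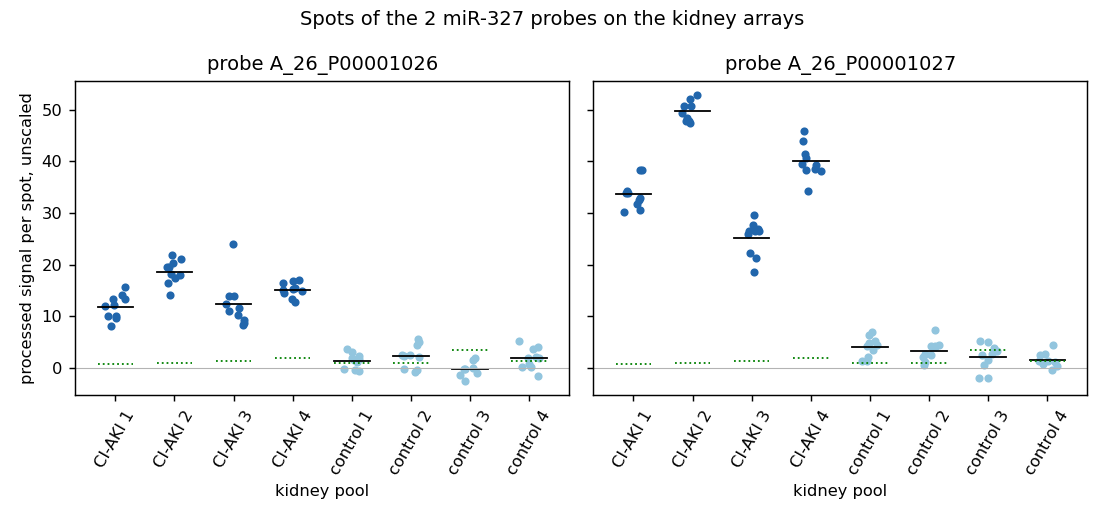
Unscaled processed signal (vertical axis) of every used spot of the 2 miR-327 probes on the 8 kidney arrays (horizontal axis); black bars are means over spots, and green dotted lines the 95th percentile of each array's negative-control spots. All CI-AKI spots lie at 8.2 or above and all control spots at 7.4 or below.

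The control kidney signal was low, though not as low as that of most undetected miRNAs. Of the used control kidney spots of miR-327, 47 of 77 (61.0%) lay above the 95th percentile of the negative-control spots of their array. The arrays were uneven, with 17 of 20, 16 of 20, 3 of 18 and 11 of 19 such spots in control pools 1 to 4. The share therefore rests mainly on pools 1 and 2. Over the 152 miRNAs that no control kidney array detected, the median share over all control kidney spots was 23.1%, and 8 had a higher share than miR-327. A low level of miR-327 in control kidney is therefore not measured as absent; it was not detectable on these arrays.

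In plasma, scaled over the plasma arrays alone, miR-327 read 686, 378, 363 and 348 in CI-AKI pools 1 to 4, against 177, 244, 196 and 329 in control pools 1 to 4. Every CI-AKI pool was above every control pool, pool 4 of CI-AKI only just so. The means were 444 ± 162 in CI-AKI and 237 ± 67.9 in control plasma (SD, n = 4), a log2 difference of 0.89 (SE 0.31, 95% confidence interval 0.19 to 1.59) or 1.85-fold. Spots of 1 probe on 1 plasma array varied by a median of 3.21% in CI-AKI and 2.72% in control pools (coefficient of variation), less than the spread between pools. Without scaling, the signal was 563, 1191, 639 and 62.8 in CI-AKI plasma pools 1 to 4, against 314, 555, 603 and 32.3 in control plasma pools 1 to 4. The unscaled groups overlapped, with pool 4 lowest in both.

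This plasma contrast was not used to pick miR-327, although its result was known by then. The difference did not pass in limma across all 96 tested plasma miRNAs, of which 0% passed. Among them miR-327 had the highest CI-AKI minus control difference and the smallest unadjusted p in limma, with an adjusted p of 0.836. In size, the differences of miR-215 (-1.0) and miR-335 (-0.895), both lower in CI-AKI, exceeded that of miR-327 (0.888). Unadjusted p-values under 0.05 were found for 5 of the 96 (5.21%), 3 higher and 2 lower. An exact permutation test of miR-327 alone over the 8 arrays gave a two-sided p = 0.0286, the smallest that 4 against 4 pools can give. It gave the same for each probe, with log2 differences of 0.95 and 0.86 (3 exact tests, Benjamini-Hochberg adjusted p = 0.0286 for each). The probes make up the miR-327 signal and shared its scaling, so they are not separate support. The adjustment over 3 tests does not cover the 96 miRNAs. The exact permutation p of miR-327 also rests on the processing. It was 0.0571 with the dimmer probe of each miRNA, 0.171 with the labelling spike-in as the scale and 0.486 without scaling. The groups overlapped in each of these settings. Permuted only within the 4 same-numbered pairs, all 4 of them higher in CI-AKI, the exact p was 0.125, the smallest that 4 pairs can give. Groups did not overlap for 5.21% of the tested plasma miRNAs, and for 2.08% (miR-327 and miR-188) with CI-AKI on the higher side. The difference was 0.66 without CI-AKI pool 1, the highest, and 1.41 without the weak pool 4 arrays of both groups (adjusted p = 0.108). Within the first and second slide row it was 1.29 and 0.49.

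**Figure D3:**
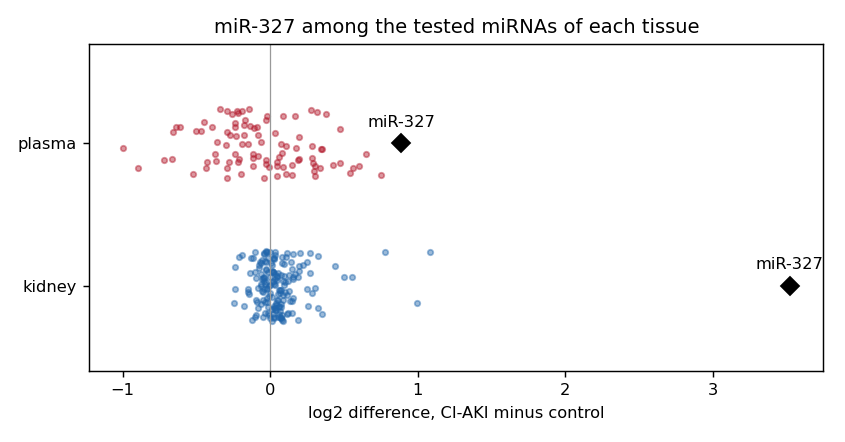
Log2 difference, CI-AKI minus control, of each tested miRNA (points, spread vertically for sight only) in plasma (96 miRNAs) and kidney (176 miRNAs), with miR-327 as a black diamond. In plasma miR-327 stands at 0.89 at the upper edge of a wide spread. In kidney, the contrast that picked it, it stands at 3.52, with the next miRNA at 1.08.

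Between tissues, miR-327 was far brighter in plasma under both treatments, as the label under which it was picked already says. In CI-AKI pools, where both tissues detected it, the plasma signal was 72.8-fold that of kidney, a log2 difference of 6.19. The size depends on the scaling, since this difference was 4.01 without scaling and 5.4 with the percentile over all miRNAs. In control pools the log2 difference was 8.45 with control kidney values raised to the detection floor, and 6.69 without scaling. No control kidney array detected miR-327, so its level there, and with it the size of the difference between tissues in control pools, is uncertain. The difference between the 2 tissues' responses to contrast medium rests on the kidney contrast that picked the miRNA and was not tested.

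In all, 6 miRNAs were detected in all 8 plasma pools and in 0 of 4 control kidney pools: miR-327, the liver miRNA miR-122, the muscle miRNA miR-1, miR-215, miR-300-5p and miR-423. In CI-AKI kidney, miR-327 was detected in 4 of 4 pools, miR-423 in 1, and the other 4 in 0. The signal of miR-122 was -0.275 ± 0.263 in CI-AKI kidney and 0.345 ± 1.28 in control kidney, while its plasma signal was 1420 ± 1002 in CI-AKI and 1766 ± 489 in control pools (SD, n = 4). MiR-122 was thus bright in plasma and undetected in kidney in both groups. Carry-over of plasma into the kidney samples was not tested. That of miR-215 was 1.9 ± 0.472 in CI-AKI and 1.71 ± 0.682 in control kidney, and that of miR-1 was 1.21 ± 1.07 in CI-AKI and 1.13 ± 1.06 in control kidney. MiR-423 read 3.33 ± 0.816 in CI-AKI and 2.31 ± 0.608 in control kidney, with overlapping pools. In plasma, CI-AKI pools had 3 of the 6 higher and 3 lower (median log2 difference 0.039, against -0.086 over all 96), and 0 of 6 passed in limma.

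**Figure D4:**
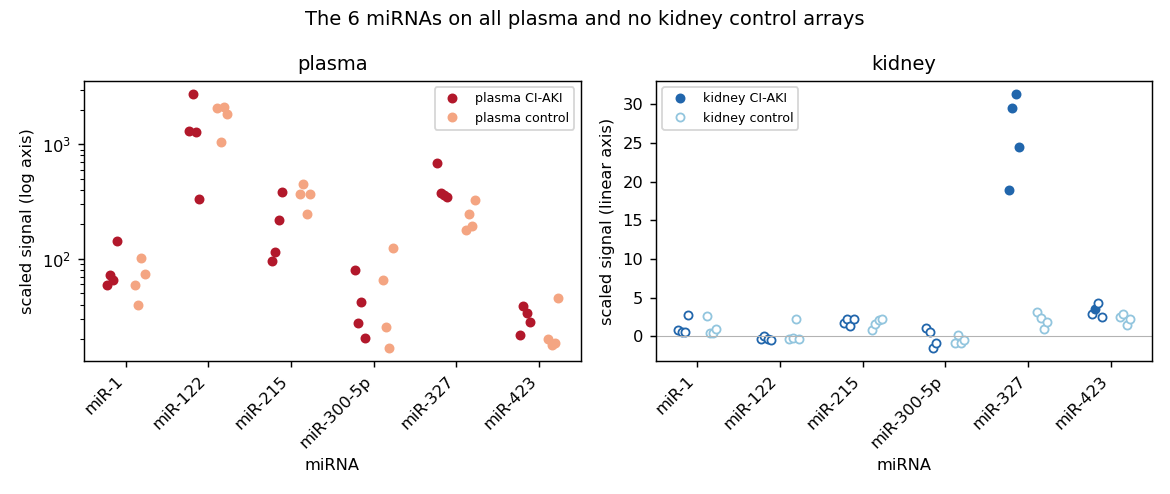
Scaled signal of the 6 miRNAs detected on all plasma and no control kidney arrays, in plasma (left, log axis) and in kidney (right, linear axis); each point is 1 pool, filled where detected and open where not, CI-AKI left of control. In kidney only the CI-AKI points of miR-327 rise above 5, between 18.9 and 31.3.

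Markers of blood cells were read beside the kidney values, since kidney samples hold blood. MiR-451, made in red blood cells, read between 364 and 402 in CI-AKI kidney pools and between 216 and 438 in control kidney pools. The groups overlapped, with a log2 difference of 0.26 (SE 0.18, limma adjusted p = 0.924). Both red blood cell markers on the array, miR-451 and miR-144, had higher means in CI-AKI kidney, and 0 of 2 passed, where 1.7% of all 176 tested kidney miRNAs did; their summed signal ran from 373 to 413 in CI-AKI and from 224 to 449 in control pools. Of the 4 leukocyte markers, 2 were higher and 2 lower and 0 passed (1.7% of all 176), among them the myeloid miR-223 at 0.013 (SE 0.09, adjusted p = 0.957). Their summed kidney signal ran from 459 to 566 in CI-AKI and from 487 to 597 in control pools. Of the 3 platelet markers, 2 were tested in kidney, miR-223 and miR-126, with 1 higher, 1 lower and 0 passing. MiR-223 is also on the leukocyte list and miR-126 is also listed for endothelium. The summed kidney signal of the platelet markers ran from 1321 to 1477 in CI-AKI and from 1309 to 1509 in control pools. The part of residual blood in the kidney signal of miR-327 was not tested beyond these values.

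The miRNAs listed as tubule markers were present in both kidney groups. They are not particular to kidney here, since miR-192, miR-30a, miR-30c, miR-30d and miR-30e were also detected in all 8 plasma pools. The 7 tubule markers, among them miR-204, miR-192 and the miR-30 family, were all detected, with a summed signal of 8342 to 8892 in CI-AKI and 7533 to 8701 in control pools; 6 were higher, 1 lower and 0 passed (median log2 difference 0.043, against 0.028 over all 176). In this bulk tissue a change in the number of cells that hold a miRNA and a change per cell cannot be told apart. Of the 17 miRNAs listed as linked to kidney injury, 15 were on the array and 13 were tested in kidney: 8 were higher and 5 lower, 1 passed (miR-494, higher), against 1.7% of all 176, and the median was 0.013, against 0.028 over all 176. MiR-21, a miRNA often linked to kidney injury, stood at -0.0014 (adjusted p = 0.996). Earlier results of these same data had shown miR-466b, miR-494, miR-188 and miR-31 higher in kidney. All 4 were higher and 2 passed, but that list was chosen on these samples and is no independent evidence. MiR-494 and miR-188 are also on the injury list, so the pass of miR-494 there is no independent evidence either.

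The miRNAs whose pattern was most like that of miR-327 were named by Pearson's r of log2 signal. Over all 16 arrays and 184 other miRNAs these were miR-188 (r = 0.98), miR-466b (0.96), miR-874 (0.96), miR-125a-3p (0.96) and miR-423 (0.96), all brighter in plasma than in kidney. The 2 tissues form separate clusters, so these values mostly describe the gap between plasma and kidney. Over the 8 kidney arrays the closest of 175 were miR-466b (0.93), miR-27a (0.9), miR-27b (0.87), miR-31 (0.87) and miR-188 (0.81). Over the 8 plasma arrays the closest of 95 were miR-188 (0.87), miR-874 (0.80), miR-30d (0.77), miR-291a-5p (0.75) and miR-125a-3p (0.70). The arrays share slide and treatment, and these r are descriptions with no test.

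MiR-188 was among the closest in all 3 sets. In kidney it read 8.03, 7.35, 19.997 and 8.58 in CI-AKI pools 1 to 4, against 5.45, 4.24, 5.35 and 4.05 in control pools 1 to 4, with detection in 4 CI-AKI pools and 1 control pool. After scaling its highest value, like that of miR-327, was in CI-AKI pool 3, where miR-327 was lowest before scaling. The kidney groups of miR-188 did not overlap (log2 difference 1.08, SE 0.29, limma adjusted p = 0.169). In plasma it read 81.6 ± 15.7 in CI-AKI and 51.9 ± 8.99 in control pools (SD, n = 4; log2 difference 0.65, SE 0.25, limma adjusted p = 0.836). MiR-466b read 6.38 ± 0.39 in CI-AKI and 3.22 ± 0.423 in control kidney (SD, n = 4), with detection in 4 CI-AKI pools and 1 control pool. Its log2 difference was 0.996 in kidney (SE 0.10, limma adjusted p = 0.000342) and 0.14 in plasma (SE 0.42, adjusted p = 0.954). MiR-874 was detected in all pools of both tissues. Its difference was 0.75 in plasma (SE 0.31, limma adjusted p = 0.836) and 0.27 in kidney (SE 0.14, adjusted p = 0.924). These miRNAs were named for their likeness to miR-327, which was picked on the same kidney arrays. Their kidney p-values are therefore no independent evidence.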

How the data were processed

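Commercial kits for miRNA served to isolate and to label the RNA, per the labels' protocols. Spot intensity on these 1-colour arrays comes from Agilent Feature Extraction 10.7.3.1, which also subtracted background, per the file headers. The authors' deposited table holds log2 values whose columns share a median of 2.28; how it was made is not given in the sources used here.

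Processed signals were averaged over spots without outlier flags, then over probes. The scaling factor of an array was the 75th percentile of its signals over the miRNAs that every array of the tissue detected (74 for plasma, 163 for kidney, 65 for both tissues together). Values under the median of the arrays' lowest detected signals were raised to it before log2. For the 10.6-fold value, the control kidney signals were first raised, array by array, to the lowest detected signal where they fell short of it. The test took miRNAs detected throughout 1 or more groups into limma 3.58.1 in R 4.3.3 (two-sided, Benjamini-Hochberg, threshold 0.05); exact tests used scipy 1.17.1. No spot was saturated (0 on all arrays). Sequences are RefSeq's for GRCr8; 68 of 350 array names had an entry. The plan for the normexp correction named the mean signal, but only the median signal was available, and it was used.

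Same-numbered plasma pools deviated together (r = 0.22, 0.49, 0.62 and 0.60 for numbers 1 to 4 over 96 miRNAs), so these numbers were taken to pair the plasma arrays; the kidney numbers did not (0.20, 0.59, -0.10 and 0.15). Plasma data were simulated with 96 miRNAs, 20 of them changed, and with independent errors. On these the fit recovered 37.8% of log2 changes of 1 and 91.2% of changes of 2. Recovery with fewer changed miRNAs or with paired pools was not simulated. The design text gives each pool of a tissue its own 3 rats, and the number of pools limits the precision. MiR-327 and the lists were chosen with earlier results of these data known. Besides miR-327, the named miRNAs are the 5 most like it in each set of arrays, those on all plasma and no control kidney arrays, and members of the marker, injury and earlier-result lists.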

Additional observations from a re-analysis of the deposited data

Results flagged for a closer look

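Of 32 sets of 4 pools examined, 5 held a pool far from the other 3, where chance flags about 1 in 20. In CI-AKI plasma, miR-327 read 686 in pool 1, against 378 for the next pool, and 9.42 against 8.56 on the log2 scale; without it the plasma difference was 0.66 on the log2 scale. In the authors' deposited table, control kidney pool 3 stood at 0.982 for miR-327, against 1.11 for the next pool, all undetected. Control plasma pool 4 had 84 detected miRNAs, against 188 in the next, and CI-AKI kidney pool 3 had a total miRNA signal of 59735, against 116820 in the next. Without that kidney pool the log2 kidney difference of miR-327 was 3.404.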

How the results depend on the processing

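The plasma difference of miR-327 was above 0 in all 30 alternatives (0.49 to 1.41 on the log2 scale). Those that changed only the floor, the detection filter or the model could not move this difference. With 1 pool left out it ran from 0.66 to 1.2. The difference passed in limma in none of the alternatives with a test (adjusted p 0.108 to 0.999). The number of plasma miRNAs that passed in limma was 0 in all 24 alternatives, with 0 to 32 at an unadjusted p under 0.05. With the replicate block the plasma difference was 0.89 (adjusted p = 0.318), 0 miRNAs passed, and no limma call changed. The exact permutation test, rerun in alternatives chosen after seeing the data, gave p = 0.0286 in 10 of 13 array settings, 0.0571 with the dimmer probe, 0.171 with the spike-in and 0.486 without scaling, and 0.125 with the replicate block; with 1 pool left out it cannot go under 0.0571 and was not run. The kidney difference stayed above 0 in all 23 alternatives and ran from 3.38 to 3.68 with 1 pool left out. It was 0.46 with normexp correction, whose added offset of 50 exceeds the kidney signals, 1.84 with a floor 4 times as high, 2.93 with the dimmer probe, 3.99 with the total signal per miRNA, and 3.13 and 3.92 within the slide rows; the cause of the others was not tested. The difference between tissues ran from 5.97 to 6.31 in CI-AKI and from 8.25 to 8.68 in control pools with 1 pool left out. With the percentile over all miRNAs it was 5.4 in CI-AKI and 8.05 in control pools, with quantile normalization 5.7 and 7.68, without scaling 4.01 and 6.69, with normexp 4.15 and 3.63, and from the authors' deposited values 5.71 and 8.01. It was 5.57 in CI-AKI pools with spike-in scaling and 8.05 in control pools without plasma pool 4. Since control kidney arrays did not detect miR-327, differences against them depend on the floor, as the higher floor shows.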
